A study of Mus musculus with 8 samples.

Results

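The genes of the creatine cycle that runs beside UCP1 in thermogenic fat were followed in brown adipose tissue (BAT) by bulk RNA-seq. The set was chosen by name, as 7 members of the 31053 gene identifiers in the count table, and all 7 had at least 1 count. They are Gatm and Gamt for creatine synthesis, Slc6a8 for creatine uptake, Ckb, Ckmt1 and Ckmt2 for its phosphorylation, and Alpl as the phosphatase. There were 4 libraries labelled WT and 4 labelled Cd36KO, all from C57BL6/J mice labelled as 8 weeks old. The labels name the genotype only as Cd36KO, with no allele. The study describes germline knockouts as well as mice with floxed Cd36 and Csf1r Cre, which deletes in myeloid cells, and it attributes its BAT transcriptome to the myeloid model. It used males and its methods give a later age for the myeloid model than the labels do. Its figure legend for this comparison gives an age of 8 weeks and 4 mice per group. The count column of 1 Cd36KO library has no replicate number and is called the unnumbered Cd36KO library here. The series text calls the samples biological replicates, but the labels tie none to an animal, so the p-values measure the spread between these libraries.

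In creatine cycling, GATM (arginine:glycine amidinotransferase) and GAMT (guanidinoacetate methyltransferase) make creatine, and the SLC6A8 carrier brings it in from blood. Creatine kinases then transfer phosphate from ATP to creatine, and hydrolysis of phosphocreatine sends creatine back for another round, so that ATP is used and heat is released without proton leak through UCP1. In brown adipocytes CKB and the tissue-nonspecific alkaline phosphatase encoded by Alpl are known for this cycle, whereas the mitochondrial kinase CKMT2 and the cytosolic kinase CKM are best known from striated muscle. BAT lies against back muscle, so the share of muscle RNA in each library was set beside each member.

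Total counts ran from 2679785 to 4097953 per library, and 13368 to 14698 genes were detected. The labels also name the stromal vascular fraction as the cell type, but mature adipocyte markers were abundant in all 8 libraries, as Ucp1 ranged from 4235 to 12313 normalized counts (counts divided by the DESeq2 size factor). Transcripts of Cd36 were present in every Cd36KO library, at 1926 to 2384 normalized counts against 2412 to 3505 in WT. The groups did not overlap for Cd36, and its log2 fold change was -0.48 (SE 0.16, adjusted p = 0.0602 by the DESeq2 Wald test, which misses the threshold of 0.05). It passed in 2 of 16 other settings, with TMM factors (adjusted p = 0.0494, DESeq2) and without WT 4 (0.00655). Across all genes DESeq2 called 284 of 9619, or 2.95%. The summed normalized counts of 13 brown adipocyte markers were 21285 to 26689.5 in WT and 34822 to 44056 in Cd36KO, whereas 7 general adipocyte genes summed to 26949 to 48490 in WT and 29004 to 31717 in Cd36KO, with 6 of the 7 log2 fold changes negative, a median of -0.45 and 0 called (2 at an unadjusted p under 0.05) by DESeq2. A white depot list of 7 genes, Lep and Hoxc8 among them and Hoxc10 at 0 in all libraries, summed to 668 in WT 1, to 3944, 4829 and 4446 in WT 2, 3 and 4, and to 554 to 986 in Cd36KO. The lists of other cell types that the tissue could hold overlapped between groups, at 442 to 816 in WT and 513 to 734 in Cd36KO for 8 macrophage markers, 702 to 1128 and 808 to 1164 for 6 endothelial markers, 203 to 657 and 255 to 419 for 7 smooth muscle markers and 886 to 1086 and 775 to 944 for 6 stromal progenitor markers. By DESeq2, 4 of the 12 brown adipocyte markers with an adjusted p were called, all higher, beside 2.95% of all genes. Their log2 fold changes were positive in 11 and negative in Adrb3, at -1.59 (adjusted p = 0.0614, DESeq2). In the white depot list 4 of 5 were called, all lower. Among the other lists 1 of 7 macrophage and 1 of 7 smooth muscle genes were called, both lower, with 0 of 6 endothelial and 0 of 5 stromal progenitor genes. In bulk tissue, fewer cells of a type and less RNA per cell cannot be told apart.

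None of the 7 creatine cycle genes passed the DESeq2 test between Cd36KO and WT BAT. Of the 5 members with an adjusted p, 2 had a higher and 3 a lower estimate in Cd36KO, and their median log2 fold change was -0.04 beside -0.01 over all genes tested. Ckb, the most abundant member, was 1.41-fold higher in Cd36KO with a 95% interval from 0.86 to 2.33-fold, and Ckmt2 was the lowest relative to WT, with a log2 fold change of -3.07 that moved to -1.64 without WT 1, the library richest in muscle transcripts. None of the members had an unadjusted DESeq2 p under 0.05, beside 1498 of the 9619 genes tested, or 15.6%. With edgeR's quasi-likelihood test 0 of 5 members and 14 of 9793 genes, or 0.143%, were called, and 1 member, Ckmt2, had an unadjusted p under 0.05, beside 1580 of all genes, or 16.1%. With 5 members, these counts are near the background. With limma on the authors' log2 values 0 of 9793 genes passed, or 0.0%, so that 0 of 5 members passing says nothing of the members; 0 of the 5 and 1542 of all genes had an unadjusted p under 0.05. In none of the 5 members that averaged 10 or more normalized counts did the groups separate, while 851 of 9834 genes at that level, or 8.65%, had groups that did not overlap in 1 direction or the other.

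**Figure D1:**
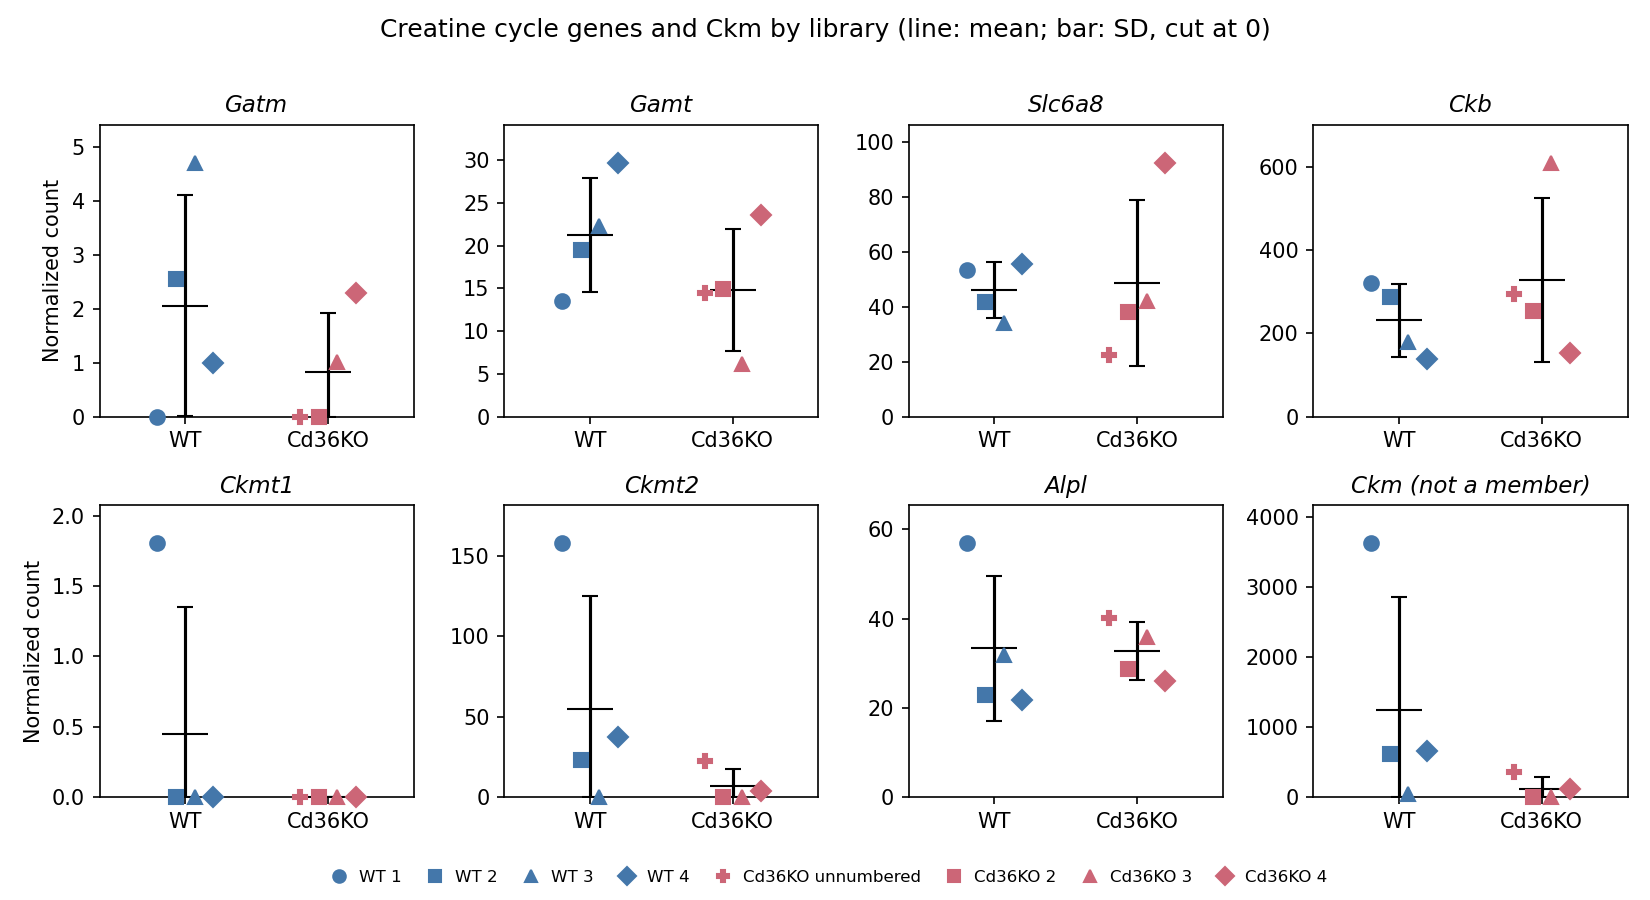
Normalized counts of the 7 creatine cycle genes and of Ckm (y axis, linear, own scale per panel) in 4 WT and 4 Cd36KO libraries; each point is 1 library, the line is the mean and the bar the SD, cut at 0. WT and Cd36KO points overlap in every panel, Ckb is highest in Cd36KO 3 at 609.6, and Ckmt2 and Ckm are highest in WT 1.

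The synthesis genes were near or at the lower end of what this depth could count. Gatm (ENSMUSG00000027199, chr2:122594467-122611303, minus strand, GRCm38) had 12 counts in all 8 libraries together. Its counts were 0, 3, 4 and 1 in WT 1 to 4 and 0, 0, 1 and 3 in the unnumbered library and Cd36KO 2, 3 and 4. WT 3 alone exceeded 3 counts, and with a floor of 3 counts per library no fold change is given. A floor of 3 counts corresponded to 0.73 to 1.12 counts per 1000000 counts, which covers counting error only. Gamt (ENSMUSG00000020150, chr10:80258151-80261012, minus strand) was measurable in every library. It had 13.5, 19.5, 22.3 and 29.7 normalized counts in WT 1 to 4 and 14.5, 15.0, 6.14 and 23.6 in the unnumbered library and Cd36KO 2, 3 and 4. The groups overlapped, with Cd36KO 3 lowest and WT 4 highest. Means with SD over 4 libraries were 21.3 ± 6.70 in WT against 14.8 ± 7.15 in Cd36KO. The log2 fold change of -0.50 had a 95% interval from -1.43 to 0.43 (adjusted p = 0.678, DESeq2).

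Slc6a8 (ENSMUSG00000019558, chrX:73673150-73682502, plus strand) encodes the sodium- and chloride-dependent creatine carrier. Its normalized counts were 53.3, 41.6, 34.1 and 55.4 in WT 1 to 4 and 22.3, 38.0, 41.9 and 92.3 in the unnumbered library and Cd36KO 2, 3 and 4. Both the lowest and the highest value were in Cd36KO, whose spread enclosed all WT libraries. The means were 46.1 ± 10.02 in WT and 48.6 ± 30.3 in Cd36KO, and the log2 fold change was 0.09 with a 95% interval from -0.69 to 0.87 (adjusted p = 0.951, DESeq2). Its sign turned without Cd36KO 4, at -0.44, and without WT 3, at -0.02.

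Ckb (ENSMUSG00000001270, chr12:111669361-111672338, minus strand) encodes the cytosolic brain-type creatine kinase and was the member with the most counts, 2270 over the 8 libraries. Its promoter is shown with those of Ckmt2 and Ckm because the muscle kinases moved together over the libraries and Ckb did not. The sequences are the 250 bases before the RefSeq start on GRCm38.p6, at chr12:111672339-111672588 (minus strand) for Ckb, chr13:91876886-91877135 (minus strand) for Ckmt2 and chr7:19410844-19411093 (plus strand) for Ckm, written 5′ to 3′ on the strand of the gene. The Ckm window lies within the GENCODE gene body, whose outermost start is further upstream. Capitals mark an E-box (CANNTG) in Ckmt2 and Ckm and a match to the MEF2 consensus in Ckb:
Ckb: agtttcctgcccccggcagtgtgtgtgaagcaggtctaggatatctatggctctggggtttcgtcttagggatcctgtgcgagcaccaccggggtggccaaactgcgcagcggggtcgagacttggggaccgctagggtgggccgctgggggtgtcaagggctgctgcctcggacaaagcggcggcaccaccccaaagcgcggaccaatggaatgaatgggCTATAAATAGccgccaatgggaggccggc
Ckmt2: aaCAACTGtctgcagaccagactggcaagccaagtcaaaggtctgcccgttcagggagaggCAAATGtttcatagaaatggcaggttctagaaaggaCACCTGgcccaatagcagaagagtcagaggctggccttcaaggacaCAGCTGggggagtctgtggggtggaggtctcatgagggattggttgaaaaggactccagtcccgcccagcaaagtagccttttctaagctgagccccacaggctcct
Ckm: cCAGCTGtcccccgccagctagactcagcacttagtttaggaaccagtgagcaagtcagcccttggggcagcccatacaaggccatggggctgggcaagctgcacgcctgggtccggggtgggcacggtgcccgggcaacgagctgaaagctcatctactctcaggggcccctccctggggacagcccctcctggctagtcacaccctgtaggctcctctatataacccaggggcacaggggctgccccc
Both strands were searched. Ckmt2 held 4 E-boxes and no MEF2 match, Ckm 1 E-box and no MEF2 match, and Ckb no E-box and 1 MEF2 match that contains the letters TATAAA. Of 32851 RefSeq promoter windows of this length, 66.2% held at least 1 E-box, 3.84% at least 4, 2.92% a MEF2 match and 12.4% TATAAA. These matches describe the letters in the windows and say nothing of binding.

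Ckb had 322.3, 287.1, 178.8 and 138.5 normalized counts in WT 1 to 4, and 294.1, 254.3, 609.6 and 154.1 in the unnumbered library and Cd36KO 2, 3 and 4. Cd36KO 3 stood above all other libraries, and the remaining Cd36KO libraries lay inside the WT range. The means were 231.7 ± 87.1 in WT and 328.0 ± 196.8 in Cd36KO, with a log2 fold change of 0.50 (SE 0.37, adjusted p = 0.546, DESeq2). Without Cd36KO 3 the log2 fold change was 0.01. Even the lowest library had 140 Ckb counts. The SD of log2(normalized count + 1) within groups was 0.70 for Ckb, larger than that of 96.9% of the 5528 genes with a mean of at least 50 normalized counts. For comparison, the SD of Ucp1 was 0.31, above 56.5% of those genes. Of 3229 windows of 75 bases in Ckb transcripts, 188 also occurred in transcripts of Gm12892, so reads from that stretch may have been assigned differently.

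The genes whose levels were most like that of Ckb over the 8 libraries, among 5527 others with a mean of at least 50 normalized counts, were Ap4b1, Top3b and Sgk2, with Pearson r of 0.97, 0.96 and 0.94 on the log2(normalized count + 1) scale. These are the top values of many and 8 points share library depth, so they are a description. Sgk2, a serine/threonine kinase, had the same high library, at 160.6 normalized counts in Cd36KO 3 against 14.1 to 63.3 in the other 7. Ap4b1, an adaptor complex subunit, and Top3b, a topoisomerase, followed a similar order over a much narrower range, from 43.5 to 61.4 and from 56.4 to 81.8 normalized counts. The r of Ckb with Ucp1 was 0.29. Ckb is also strongly expressed in neural tissue, and the 8 nerve and glia markers, all with at least 1 count, summed to 461 to 842 normalized counts in WT and 696 to 1272 in Cd36KO, with their highest sum in Cd36KO 3 and their lowest in WT 4. In Cd36KO 3 most of that sum was S100b, which fat cells also express. The part of such cells in the Ckb values was not tested.

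Ckmt1 (ENSMUSG00000000308, chr2:121357714-121363737, plus strand), the ubiquitous mitochondrial creatine kinase, was all but absent from the counts. It had 2 counts in WT 1 and 0 in the other 7 libraries, below the floor of 3 counts everywhere, and no fold change is given. Ckmt2 (ENSMUSG00000021622, chr13:91853387-91876885, minus strand) encodes the sarcomeric mitochondrial creatine kinase. It had 158.0, 22.9, 0 and 37.6 normalized counts in WT 1 to 4 and 22.3, 0, 0 and 3.81 in the unnumbered library and Cd36KO 2, 3 and 4. A single WT library held most of the signal, 3 libraries from both groups had no count, and the groups overlapped. The log2 fold change was -3.07 (SE 2.17, 95% interval -7.31 to 1.18, adjusted p = 0.526, DESeq2), and the exact two-sided permutation test of the log2 values gave p = 0.2. Without WT 1 the log2 fold change was -1.64 and without the unnumbered Cd36KO library it was -5.37. An antisense transcript shares 84 exon bases with Ckmt2 but had 0 counts.

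The share of counts in skeletal muscle genes differed by 181-fold between the highest and the lowest library, or by 1275-fold over 9 fast fibre genes alone. The 39 genes of the skeletal muscle list, which holds no creatine kinase and in which every gene had counts, took 3.72%, 0.66%, 0.0533% and 0.567% of counts in WT 1 to 4. In the unnumbered library and Cd36KO 2, 3 and 4 they took 0.408%, 0.0209%, 0.0206% and 0.111%. WT 1, 2 and 4 lay above every Cd36KO library, and WT 3 lay among the lower Cd36KO libraries. The log2 of the share was 2.97 units apart between the group means, lower in Cd36KO, with an exact two-sided permutation p = 0.143 over 70 arrangements, the smallest possible being 0.0286. The difference was -2.03 without WT 1 (exact permutation p = 0.257), -4.07 without WT 3 (p = 0.0571) and -4.11 with the fast fibre genes (p = 0.143). By DESeq2, 38 of the 39 genes had an adjusted p, all 38 had negative log2 fold changes with a median of -2.94, and 1 fell, the junctophilin gene Jph1, at -2.37 (adjusted p = 0.0102), named after its value was seen. That count stands beside 2.95% of all genes called. An unadjusted p under 0.05 was found in 18 of the 38, beside 15.6% of all genes.

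Ckmt2 followed the muscle share closely, and the other members did not pass that test. Over the 8 libraries the log2(normalized count + 1) of Ckmt2 had a Pearson r of 0.98 with the log2 muscle share (exact permutation p = 0.000446, adjusted 0.00179 over 8 genes) and a Spearman rho of 0.95 (exact permutation p = 0.00149, adjusted 0.00595). Without the 2 libraries farthest from the median share, WT 1 and Cd36KO 3, r was 0.97, and after centring both measures on their group means r was 0.99. In both of these settings r still passed (exact permutation, adjusted p = 0.0292 and 0.0278), whereas rho, at 0.93 and 0.92, did not (adjusted p = 0.0778 and 0.0833). Ckm, the cytosolic muscle creatine kinase used as the reference, gave r = 0.97 and rho = 0.98 (exact permutation p = 4.96e-05 and 0.000397, adjusted 0.000397 and 0.00317), and r = 0.99 without those 2 libraries, where its rho of 0.94 did not pass (exact permutation, adjusted p = 0.0778), nor did its rho of 0.93 after centring (0.0556).

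For Gamt, Slc6a8, Ckb and Alpl, Pearson r with the muscle share was 0.31, 0.11, -0.15 and 0.28, and Spearman rho 0.17, 0.24, -0.05 and -0.05. Their exact permutation p ran from 0.465 to 0.814 for r and from 0.582 to 0.935 for rho, with adjusted values of 0.777 to 0.814 and of 0.935. Without WT 1 and Cd36KO 3 their r values were 0.29, -0.03, 0.06 and -0.27. Gatm and Ckmt1 had r of -0.23 and 0.65 and rho of -0.15 and 0.58 (exact permutation p = 0.582 and 0.125 for r, 0.743 and 0.25 for rho, adjusted 0.777 and 0.333 for r, 0.935 and 0.667 for rho), on 12 and 2 counts. Without WT 1 and Cd36KO 3 the r of Gatm was 0.04, and Ckmt1 had no count left.

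**Figure D2:**
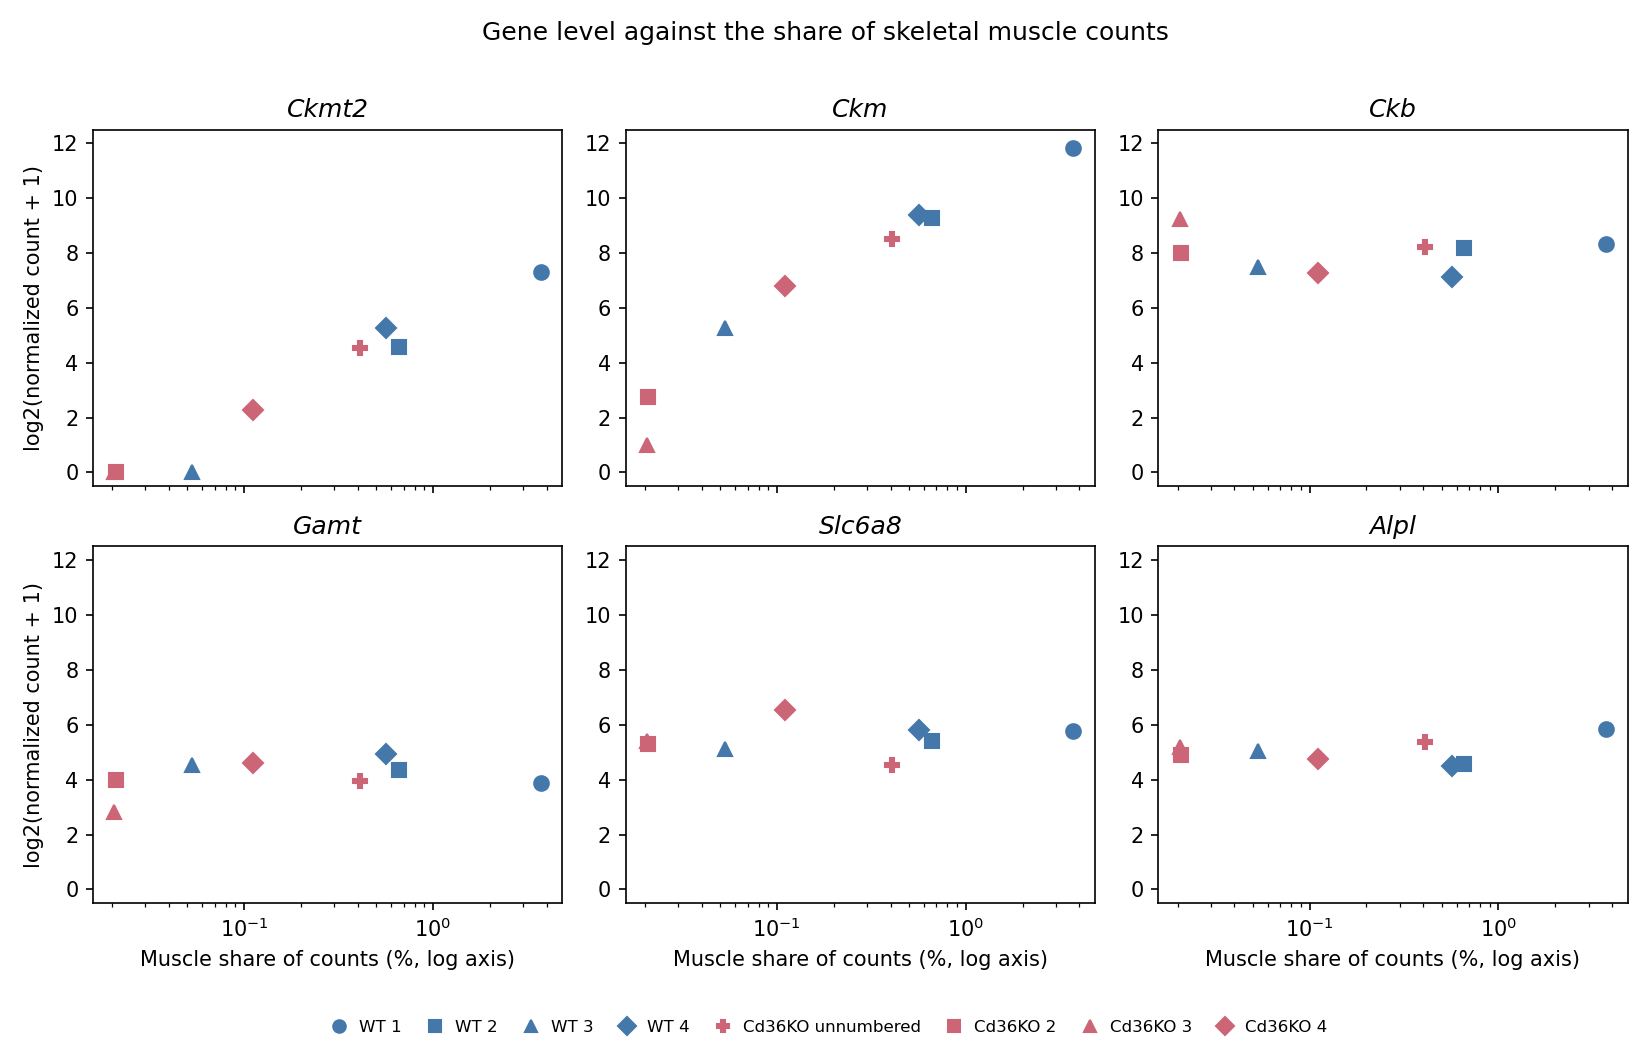
Level of Ckmt2, Ckm, Ckb, Gamt, Slc6a8 and Alpl as log2(normalized count + 1) (y axis) against the percent of counts in the skeletal muscle list (x axis, log scale); each point is 1 of 8 libraries, blue for WT and red for Cd36KO. Ckmt2 and Ckm climb with the muscle share in both groups (r = 0.98 and 0.97), while Ckb has its highest point at the lowest share, in Cd36KO 3.

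Per 1000 counts of the muscle list, Ckmt2 had 1.55, 1.19, 0 and 1.94 counts in WT 1 to 4 and 1.61, 0, 0 and 1.10 in the unnumbered library and Cd36KO 2, 3 and 4. In the 5 libraries with any Ckmt2 count the ratio thus stayed between 1.10 and 1.94 while the muscle share ran from 0.111% to 3.72%. All 8 libraries pooled gave 1.52, a value set mostly by WT 1, which had 112591 muscle counts. In WT 3, Cd36KO 2 and Cd36KO 3, where 0 Ckmt2 counts were found, the 95% Poisson intervals reached 2.55, 6.59 and 5.80, so the ratio could not be measured there. With the log2 muscle share as a covariate in DESeq2, the log2 fold change of Ckmt2 turned to 0.45 (SE 0.78, adjusted p = 0.901) and that of Ckm went from -3.37 to -0.16 (adjusted p = 0.273 and 0.973). In the fit with no covariate, that of Ckm was -1.88 without WT 1 and -4.98 without the unnumbered Cd36KO library.

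Ckm, counted more deeply, had 35.6, 31.9, 22.1 and 34.1 counts per 1000 muscle counts in WT 1 to 4 and 26.0, 8.93, 1.57 and 31.7 in the unnumbered library and Cd36KO 2, 3 and 4. Its ratio was lower in Cd36KO 2 and 3 than in the other 6 libraries, but it rested there on 5 counts and 1 count. The count in Cd36KO 3 was below the floor of 3. The Poisson interval of Cd36KO 2, 2.90 to 20.8, overlapped that of WT 3, 15.1 to 31.2. That of Cd36KO 3, 0.04 to 8.76, lay below the intervals of the other 6 libraries. In Cd36KO 2 and 3, the libraries with the lowest Ckm ratios, 43.8% and 46.9% of the muscle list counts were Myl1, a myosin light chain gene. The other libraries ran from 2.85% in WT 1 to 18.7% in WT 3, with 11.8% in Cd36KO 4. Ckb ran from 3.17 counts per 1000 muscle counts in WT 1 to 937.1 in Cd36KO 3. For Gamt, Slc6a8 and Alpl the highest ratio was 174, 123 and 98.3 times the lowest, and the lowest was in WT 1 for each.

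**Figure D3:**
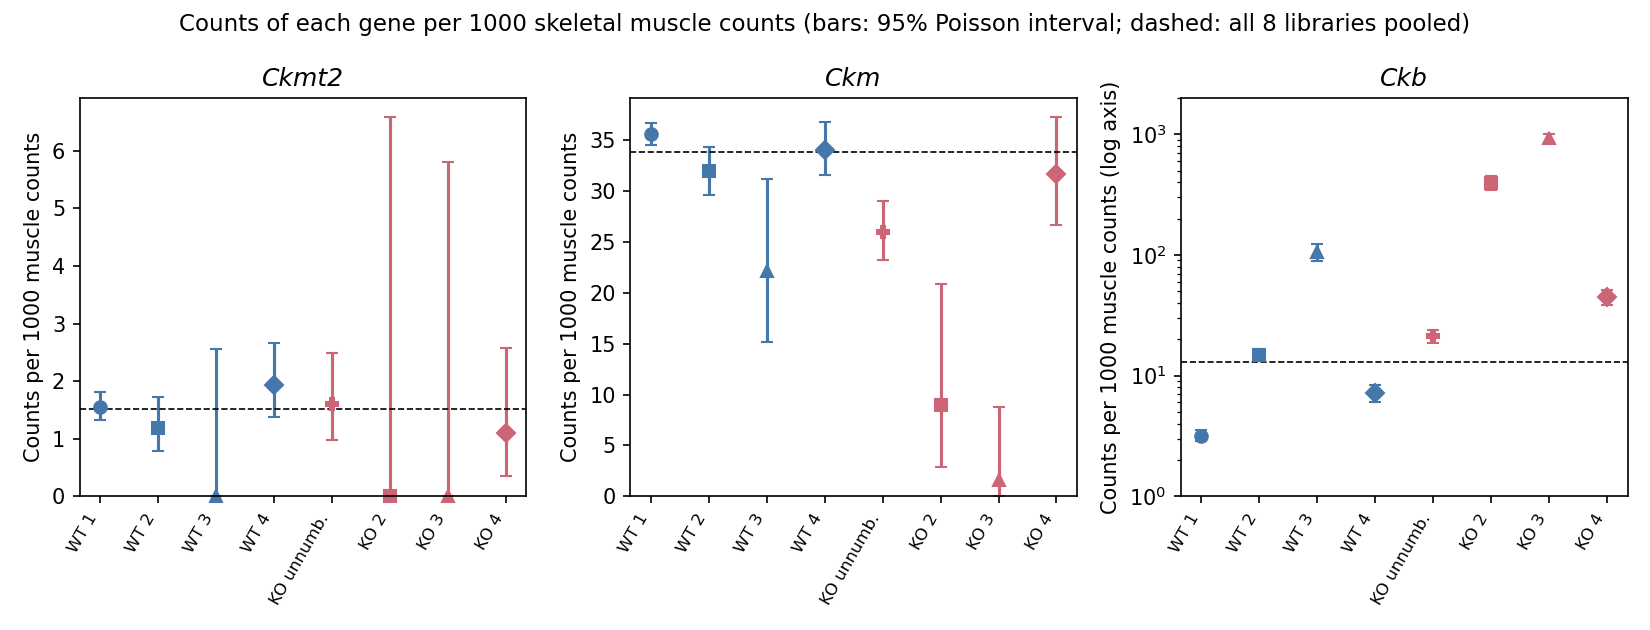
Counts of Ckmt2, Ckm and Ckb per 1000 counts of the skeletal muscle list (y axis, log scale for Ckb) in each of the 8 libraries (x axis); bars are 95% Poisson intervals for counting error and the dashed line is the value of all libraries pooled. The 3 Ckmt2 points at 0 have wide intervals, the other 5 lie between 1.10 and 1.94, and Ckb runs from 3.17 in WT 1 to 937.1 in Cd36KO 3.

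Alpl (ENSMUSG00000028766, chr4:137741733-137796384, minus strand) had 56.9, 22.9, 31.8 and 21.8 normalized counts in WT 1 to 4 and 40.1, 28.8, 35.8 and 25.9 in the unnumbered library and Cd36KO 2, 3 and 4. WT held the highest and the lowest library, and the Cd36KO values lay between them. The means were 33.3 ± 16.3 in WT and 32.7 ± 6.48 in Cd36KO, with a log2 fold change of -0.04 and a 95% interval from -0.78 to 0.71 (adjusted p = 0.980, DESeq2). Its sign turned without WT 1, at 0.36.

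Per kilobase of exon, Ckb was the most abundant member in both groups, at 80.0 ± 30.1 normalized counts per kilobase in WT and 113.3 ± 68.0 in Cd36KO. Over the 8 libraries the median per kilobase was 93.5 for Ckb, 11.9 for Gamt, 8.78 for Ckmt2, 8.02 for Slc6a8, 7.50 for Alpl, 0.34 for Gatm and 0 for Ckmt1. The order from Gamt to Alpl was within the spread between libraries. Ucp1 was at 3268.5 ± 761.3 in WT and 5763 ± 1250 in Cd36KO on that scale, and Ckm at 423.4 ± 554.6 and 40.9 ± 57.7. The study's methods name the NEGEDIA Digital mRNA-seq service for library preparation. They do not state whether the libraries were tagged at the 3′ end, and if they were, counts would not scale with length. Ucp1 was higher in Cd36KO, with a log2 fold change of 0.82 (adjusted p = 0.00843, DESeq2). The call of Ucp1 held in 11 of 16 other settings, with adjusted p from 6.56e-05 to 0.143, and was lost with edgeR, with limma and without WT 2, WT 3 or the unnumbered Cd36KO library (0.0854, 0.0582 and 0.0627, DESeq2). Per 1000 Ucp1 counts there were therefore 45.7 ± 19.4 Ckb counts in WT and 34.9 ± 20.4 in Cd36KO, and 4.05 ± 1.17 and 1.67 ± 1.01 Gamt counts. These ratios were not tested.

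The wider phosphoryl exchange list had 15 genes, of which 11 had an adjusted p, and 1 rose while none fell at that threshold, beside 2.95% of all genes called. An unadjusted p under 0.05 was found in 5 of the 11, beside 15.6% of all genes, and edgeR and limma called 0 of 12, with 5 at an unadjusted p under 0.05 by each. Ckm, which is in this list, was among the 5 with each tool (unadjusted p = 0.0362 by DESeq2, 0.0165 by edgeR and 0.0158 by limma). The riser was Nme2, a nucleoside diphosphate kinase, with 194.1, 222.5, 210.5 and 220.6 normalized counts in WT 1 to 4 and 289.7, 330.3, 360.0 and 283.7 in the unnumbered library and Cd36KO 2, 3 and 4. Every Cd36KO library was above every WT library, and the log2 fold change was 0.57 (SE 0.16, adjusted p = 0.0218, DESeq2). The call of Nme2 held in 4 of 16 other settings, among the left-out libraries only without WT 4, and its adjusted p ran from 0.0176 to 0.383 over them. Ak1, the adenylate kinase of muscle cytosol, had 278.0 normalized counts in WT 1 and 49.4 to 105.8 in the other libraries, with a log2 fold change of -0.61 (adjusted p = 0.510, DESeq2) that became 0.49 with the muscle share as covariate. The median log2 fold change of the 11 genes was 0.18. Vdac1, Vdac2 and Vdac3, the pores of the outer mitochondrial membrane, had log2 fold changes of -0.44, 0.38 and 0.54 (adjusted p = 0.220, 0.172 and 0.153, DESeq2), and were singled out after their values were seen.

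Of 26 genes that supply arginine, glycine and methyl groups, 18 had an adjusted p, 1 fell and none rose, a share near the 2.95% of all genes, 4 had an unadjusted p under 0.05 beside 15.6% of all genes, and their median log2 fold change was 0.05. Psat1, a serine synthesis enzyme, had 9.03, 51.0, 58.8 and 60.3 normalized counts in WT 1 to 4 and 20.1, 12.7, 10.2 and 12.2 in the unnumbered library and Cd36KO 2, 3 and 4. WT 2, 3 and 4 were above all Cd36KO libraries, but WT 1 was below all of them. The log2 fold change was -1.70 (SE 0.51, adjusted p = 0.0378, DESeq2). The call of Psat1 held in 5 of the 13 other settings that gave an adjusted p, among the left-out libraries only without WT 1, and its adjusted p ran from 2.02e-05 to 0.231 over them. The sum of the white depot markers was also low in WT 1 and high in WT 2, 3 and 4, and its part in the Psat1 value was not tested. Nnmt, which methylates nicotinamide, showed the same order, with 46.9 normalized counts in WT 1, 183.5 to 250.3 in WT 2 to 4 and 57.2 to 100.1 in Cd36KO (log2 fold change -1.02, adjusted p = 0.139, DESeq2). Without WT 1 its log2 fold change was -1.34 and passed the threshold (adjusted p = 9.39e-06, DESeq2). Shmt1, which makes glycine from serine, had 52.7 to 89.4 normalized counts in WT and 99.0 to 141.5 in Cd36KO, with no overlap and a log2 fold change of 0.74 (adjusted p = 0.0715, DESeq2, or 0.0309 without WT 4). Mat2b, the regulatory subunit of methionine adenosyltransferase, had a log2 fold change of -0.39 (adjusted p = 0.509, DESeq2).

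Among 6 related transporters, 2 had an adjusted p, both with an unadjusted p under 0.05, 1 fell and none rose, beside 2.95% of all genes called. The 1 transporter gene tested by edgeR and limma, Slc6a6, was not called, with an unadjusted p under 0.05 by each. Slc6a13, a GABA and taurine carrier, had 2.71, 22.1, 25.9 and 38.6 normalized counts in WT 1 to 4 and 5.57, 8.05, 3.07 and 2.29 in the unnumbered library and Cd36KO 2, 3 and 4. As for Psat1, WT 1 was low and the other WT libraries were above all Cd36KO libraries, and the log2 fold change was -2.26 (SE 0.71, adjusted p = 0.0496, DESeq2). The call of Slc6a13 held in 3 of the 9 other settings that gave an adjusted p, among the left-out libraries only without WT 1, and its adjusted p ran from 0.000756 to 0.204 over them. The taurine carrier Slc6a6 had 245.5, 202.1, 219.9 and 182.0 normalized counts in WT 1 to 4 and 104.7, 156.5, 157.5 and 145.7 in the unnumbered library and Cd36KO 2, 3 and 4. Its groups did not overlap, WT 1 included, and its log2 fold change was -0.59 (SE 0.20, adjusted p = 0.0736, DESeq2, or 0.0293 without WT 4). The median log2 fold change of the 2 genes was -1.43. Of 10 phosphatase and phosphate handling genes, Alpi, Akp3 and Alppl2, the other alkaline phosphatases, were at 0 in all 8 libraries. None of the 4 with an adjusted p passed by DESeq2, edgeR or limma, none had an unadjusted p under 0.05 by any of these, and their median log2 fold change was -0.16. Slc20a1, Phospho2 and Ank had log2 fold changes of -0.35, 0.31 and 0.03 (adjusted p = 0.636, 0.629 and 0.967, DESeq2).

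**Figure D4:**
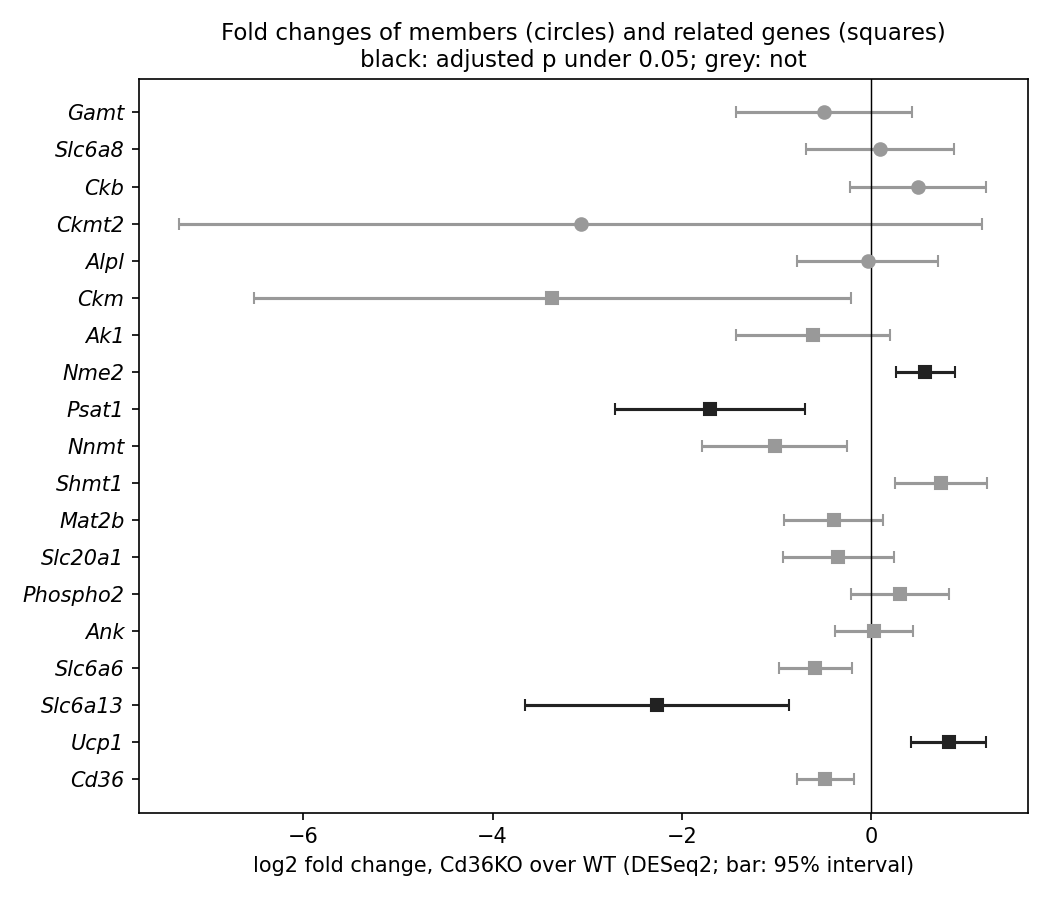
Log2 fold change of Cd36KO over WT by DESeq2 (x axis; bars are 95% intervals) for the 5 tested creatine cycle genes (circles) and related genes (squares); black marks an adjusted p under 0.05. All 5 members are grey with intervals that cross 0, the widest being that of Ckmt2, and Nme2, Psat1, Slc6a13 and Ucp1 are black.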

How the data were processed

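RNA of BAT from 4 WT and 4 Cd36KO samples was sequenced (single-end, 75 cycles). According to its methods, the study trimmed with bbduk, aligned to mm10 with STAR and counted with HTSeq; the submitters' processing notes instead name Trimmomatic and HISAT2, and strand and molecular identifiers are not stated. The counts deposited by the authors are whole numbers per gene, not normalized. The deposited log2 values were checked to equal log2(count/size factor + 1) in each library, and served only 1 alternative test. Of 31053 identifiers, 30934 matched a symbol in GENCODE M21 (GRCm38). The 119 others held 3959 counts.

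DESeq2 1.42.0 (Wald test, median-of-ratios factors, genotype only, unshrunken) in R 4.3.3 was fitted to all genes, with Benjamini-Hochberg adjustment and a threshold of 0.05. Alternatives were edgeR 4.0.16, limma 3.58.1, TMM factors, a filter of 10 counts in 4 libraries, no independent filtering, the replicate block, each library left out and the muscle share as covariate. Single values were tested by exact two-sided permutation (SciPy 1.17.1), correlations by exact permutation of pairings. On simulated counts with 200 genes changed 3-fold, DESeq2 recovered 97.5% among 16714 genes with 8.45% false calls, and edgeR 97% among 9899 with 5.37%. The changed genes were drawn from those with a mean of at least 50 normalized counts, which 1 of the 7 members reached. The simulated spread held no muscle variation, so these shares do not give the power to call the members. No 2 libraries of the same group agreed within counting noise. Intervals of fold changes are Wald intervals that include the spread between libraries, and only the Poisson intervals and the floors cover counting error alone.

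Members and gene lists were chosen with earlier results of these data known. Named genes are Cd36, Ucp1, Ckm, the members, and in each of 4 pathway lists those past the threshold plus the 3 largest changes at a mean of at least 50 normalized counts, and the 3 genes most like Ckb. Any other gene was named after its values were seen.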

Additional observations from a re-analysis of the deposited data

Results flagged for a closer look

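In a check of 44 groups of 4 libraries for a library far from the rest (Dixon's 95% limit, which chance passes in about 1 of 20 groups), 2 groups were marked, both in WT. The muscle share of WT 1 was 3.72% of counts, and the next WT library had 0.66%, a gap of 0.834 of the range. This library also held most of the Ckmt2 and Ckm counts, and the Ckmt2 log2 fold change without it was -1.64. Ckmt1 had 1.81 normalized counts in WT 1, from 2 counts below the floor of 3, and 0 in the other WT libraries.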

How the results depend on the processing

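No member passed in the main test or in any of 16 alternatives, but not every member could be called in each. Gatm and Ckmt1 had no adjusted p in the main test, and limma called 0 of 9793 genes. Without WT 4 or Cd36KO 2, Gamt, Alpl and Ckmt2 had no adjusted p. Gamt and Alpl had none without Cd36KO 3, and Gamt none with TMM factors. The estimates of Gamt and Ckb kept their direction in all 16, from -0.85 to -0.24 and from 0.01 to 0.75 on the log2 scale. The Ckmt2 fold change reversed only with the muscle share as covariate (0.45), and the cause was not tested. Slc6a8 reversed with limma (-0.0833) and ran from -0.44 to 0.33 when each library was left out. Alpl, whose estimate was near 0, reversed with the covariate (0.29), limma (0.058), the replicate block (0.25) and the same 6 libraries without the block (0.25), and ran from -0.19 to 0.36 over left-out libraries (reversed without WT 1, Cd36KO 2 or Cd36KO 4). Ckm passed the threshold with the block, at -4.77 (adjusted p = 0.00255, DESeq2), but not in the same 6 libraries without it (-3.49, adjusted p = 0.515). Nnmt passed with the block (-1.43, adjusted p = 0.000705) and in those 6 libraries without it (2.21e-05). Ak1 reversed with the covariate (0.49), with -0.88 to 0.073 over left-out libraries (reversed without WT 1), and Ank with limma (-0.00306), with -0.15 to 0.13 over left-out libraries (reversed without Cd36KO 4).

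Over all genes, edgeR called 14, limma 0 (with an unadjusted p under 0.05 in 1542 of 9793 genes, against 1498 of 9619 by DESeq2 and 1580 of 9793 by edgeR), independent filtering off 171 and the muscle covariate 178. Leaving out 1 library gave 69 (without WT 2) to 507 (without WT 4). Calls in the phosphoryl exchange list were 0 with edgeR, limma, the covariate and the 6 numbered libraries, and 0 to 2 over left-out libraries. With the block the 1 call was Ckm, and Nme2 did not pass (adjusted p = 0.366, DESeq2). In the precursor list they were 0 with edgeR, limma, the covariate and filtering off, 2 with the block or its 6 libraries, and 0 to 2 over left-out libraries. In the transporter list they were 0 with edgeR, limma, TMM factors, the 10-count filter, filtering off and the covariate, and 0 to 1 over left-out libraries. Without WT 4 Nme2 still passed, but Psat1 and Slc6a13 had no adjusted p, and the precursor and transporter genes that passed there were Shmt1 (adjusted p = 0.0309, DESeq2) and Slc6a6 (0.0293).

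The correlation of Ckb with the muscle share reversed on group means (0.0484), without the 2 farthest libraries (0.0578) and without Cd36KO 3, and ran from -0.39 to 0.36 over left-out libraries. Without the 2 farthest libraries that of Gatm (0.0433), Slc6a8 (-0.0325) and Alpl (-0.27) also reversed. Over left-out libraries Gatm ran from -0.54 to 0.0699, Slc6a8 from -0.0178 to 0.30 and Alpl from -0.42 to 0.46, each reversed without WT 1, and Gamt from -0.16 to 0.57, reversed without Cd36KO 3. Ckmt2 kept r from 0.96 to 0.99 in all 13 alternatives and the muscle share difference kept its direction in all 10 of its alternatives but passed the test in none (exact permutation p from 0.0571 to 0.257, differences from -4.11 to -2.03).

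Replicate numbers 2, 3 and 4 are shared by both groups, but same-numbered libraries deviated together with r = -0.11, 0.33 and 0.26, so they share only a number. The replicate block called 219 genes against 262 in its 6 libraries without it. The 6-library fit was chosen after seeing the data. At this depth Gatm and Ckmt1 could not be compared.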
